A study of Homo sapiens with 6 samples.

Results

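The genes described here encode enzymes and carriers of lipids: the phospholipases A2 PLA2G3, PLA2G10, PLA2G2A and PLA2G2D, the sphingosine kinase SPHK2 and the lipoprotein component APOE. They are 6 of the 770 genes in the table, taken as the rows PLA2G3, SPHK2 and APOE together with every other row whose symbol starts with PLA2G or SPHK, which added PLA2G10, PLA2G2A and PLA2G2D and no second sphingosine kinase. PLA2G3, SPHK2 and APOE were chosen by their normalized counts, which differed between the cell lines in these same samples, so their differences are given as a description, with no test. The other 3 rows came in by name, and the fit across all genes was used to test them. Total RNA of 3 biological replicates of HCT116 WT, an untreated human colorectal carcinoma cell line, and of 3 biological replicates of HCT116 p21-/-, its untreated derivative in which CDKN1A (p21) is disrupted, had been measured with the PanCancer Progression Panel of NanoString, where a pair of gene-specific probes captures each transcript, and fluorescent barcodes are counted without amplification. The methods describe the p21-/- cells as isogenic and received from another laboratory, and the growth label speaks of knockout clones without naming one per sample, so a property of the line and the loss of p21 cannot be told apart. RPMI is the medium of both lines in the labels, whereas the methods give DMEM for the p21-/- cells, and a difference in medium cannot be told apart from genotype either.

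Phospholipases A2 cut membrane phospholipids and release a fatty acid, often arachidonic acid, and a lysophospholipid. Cyclooxygenases and lipoxygenases turn arachidonic acid into prostaglandins and leukotrienes, which are well known in inflammation of the gut and in colorectal tumors. Sphingosine kinases make sphingosine 1-phosphate, a lipid that acts inside cells and, once exported, through the S1PR receptors on the cell surface. APOE is the protein by which lipoprotein particles are recognized by receptors of the LDL receptor family, and it takes cholesterol away from cells that secrete it, macrophages among them.

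The deposited values are counts normalized by the authors, with a floor under the low ones of 25.7 to 34.9 per sample, which was found to be 2 SD above the mean negative control. A gene at the floor has only an upper limit there. Barcode counts were recovered from the normalized values through the factor of each sample, and totals over genes above the floor were 867421 to 1335466 counts per sample. The geometric mean of the spiked-in positive controls was lower in the p21-/- group, at 0.659 of that in WT, and the part of this difference in the results was not tested. CDKN1A, the disrupted gene, had 4133, 5659 and 4312 normalized counts in the WT replicates against 460, 409 and 388 in the p21-/- ones. It was thus lower in every library labelled p21-/-, but not at background there, since its 426 to 449 barcode counts were 12.9 to 18.0 times the highest negative control. Whether its probe lies in the disrupted stretch is not given in the sources used here. Of the epithelial markers measured, EPCAM, CDH1, KRT19, CLDN3, CLDN4, CLDN7 and ELF3 were above the floor in all 6 samples. Their summed level was 26790 to 31285 normalized counts in WT and 14545 to 15284 in p21-/- samples, and 5 of the 7 were lower in p21-/- cells without overlap, among them CDH1 (E-cadherin) with a log2 difference of -3.23 and the epithelial transcription factor ELF3 with -3.32. The remaining markers, EPCAM and CLDN3, were higher without overlap, by log2 differences of 0.22 (limma adjusted p = 0.0444) and 0.25 (adjusted p = 0.148). After median scaling, quantile normalization and scaling by the trimmed mean of M values, EPCAM had 0.43, 0.26 and 0.32. CLDN3 had 0.47, 0.56 and 0.36, and both passed in each. After scaling to housekeeping candidates they had -0.17 and -0.13, and neither passed. The part of this difference between the lines in the results for the lipid genes was not tested. In limma, 368 of 770 genes passed an adjusted p below 0.05, 47.8% of the panel, with 21.8% higher and 26.0% lower in p21-/- cells. Of the genes called, 45.7% were higher as deposited, 59.8% after median scaling, 58.0% after quantile normalization and 15.5% after scaling to 30 housekeeping candidates. The values of the lines did not overlap in 52.2% of genes, 25.5% higher and 26.8% lower in p21-/- cells. Bulk RNA does not tell fewer expressing cells apart from less RNA per cell.

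Among the phospholipases A2, PLA2G3 was abundant only in p21-/- samples and PLA2G10 was measurable only in WT samples, while PLA2G2A and PLA2G2D were at the floor in both lines. PLA2G3, the group III secreted enzyme, had 1089.6, 930.2 and 998.9 normalized counts in p21-/- replicates 1, 2 and 3, and floor values of 29.8, 34.9 and 33.8 in the WT replicates. Every p21-/- sample lay far above every WT sample, and the p21-/- replicates were close to each other, with the highest 1.17-fold above the lowest. Against the upper limits of the WT samples, PLA2G3 was at least 24.4-fold higher in p21-/- cells. These values rested on 1010, 1022 and 1129 barcode counts, between 30.6 and 40.9 times the highest negative control of the same sample. By log2 difference, 4.90 on the log2(value + 1) scale, PLA2G3 ranked 3 among the 770 genes, a rank that depends on its floor values in WT samples.

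**Figure D1:**
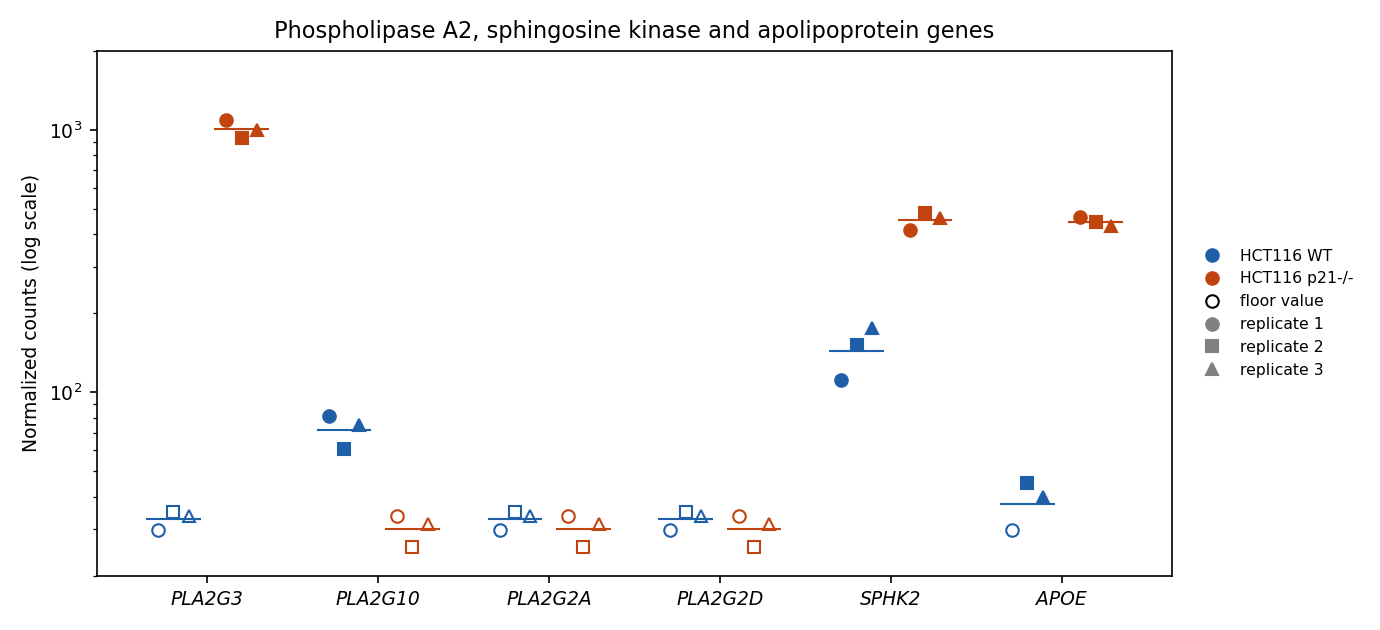
Normalized counts (log scale) of the 6 genes in each sample, with WT samples in blue and p21-/- samples in orange, 1 marker shape per replicate number, open markers for floor values and lines at the geometric mean of each line. PLA2G3, SPHK2 and APOE lie higher in all p21-/- samples, PLA2G10 is above the floor in WT samples alone, and PLA2G2A and PLA2G2D show floor values only.

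PLA2G10, the group X secreted enzyme, which is known for its high activity on phosphatidylcholine, ran the other way. WT replicates 1, 2 and 3 had 81.4, 60.7 and 74.8 normalized counts of it, and it stood at the floor of 33.8, 25.7 and 31.4 in p21-/- replicates 1, 2 and 3. All WT samples lay above all p21-/- samples, and PLA2G10 was at least 2.32-fold lower in p21-/- cells against the upper limits there. Its log2 difference was -1.23 (standard error 0.171, limma adjusted p = 1.44e-05, Benjamini-Hochberg over 770 genes), so it passed the test as 26.0% of the panel did in that direction. The WT values were 54, 54 and 64 barcode counts, 1.80 to 2.13 times the highest negative control, and their 95% Poisson intervals, which cover counting error only, ran from 40.6 at the lowest to 81.7 at the highest. Before any scaling the direction was the same, since no floor of a p21-/- sample allows as many as the 54 barcode counts of the lowest WT samples. RefSeq names 8 pseudogenes of PLA2G10, and the sequence of the panel probe is not given in the sources used here, so signal from these copies cannot be told apart from PLA2G10 itself.

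PLA2G2A, a secreted enzyme known as a modifier of intestinal polyps in mice, and PLA2G2D, a group IID relative, were at the floor in all 6 samples. Neither had a level that could be compared, and a level below the floor could not be detected in either line. Of the 20 protein-coding PLA2G genes in RefSeq, these 4 are in the table. The cytosolic enzymes and the remaining secreted ones were not analysed here.

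Upstream sequence was read from RefSeq (GRCh38.p14) for the members with a measured level and a listed window, PLA2G10, APOE and SPHK2, to set the member that was lower in p21-/- cells beside members that were higher. The 250 bases before the first listed start are given 5′ to 3′ on the strand of the gene, as reference sequence and not as sequence of these cell lines. Capitals mark CAGGTG or CACCTG, which are the same letters on opposite strands and form an E-box bound by SNAI and ZEB factors.
PLA2G10, chr16:14694309-14694558, minus strand: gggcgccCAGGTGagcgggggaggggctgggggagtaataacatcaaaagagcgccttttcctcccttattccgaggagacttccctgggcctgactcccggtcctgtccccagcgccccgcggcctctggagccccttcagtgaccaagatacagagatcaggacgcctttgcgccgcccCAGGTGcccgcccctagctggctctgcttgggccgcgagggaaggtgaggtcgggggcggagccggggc
APOE, chr19:44905546-44905795, plus strand: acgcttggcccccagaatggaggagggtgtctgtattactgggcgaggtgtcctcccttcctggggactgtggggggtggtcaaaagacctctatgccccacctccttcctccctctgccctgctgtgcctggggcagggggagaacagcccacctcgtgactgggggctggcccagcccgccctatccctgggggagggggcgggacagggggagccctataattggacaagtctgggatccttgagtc
SPHK2, chr19:48619256-48619505, plus strand: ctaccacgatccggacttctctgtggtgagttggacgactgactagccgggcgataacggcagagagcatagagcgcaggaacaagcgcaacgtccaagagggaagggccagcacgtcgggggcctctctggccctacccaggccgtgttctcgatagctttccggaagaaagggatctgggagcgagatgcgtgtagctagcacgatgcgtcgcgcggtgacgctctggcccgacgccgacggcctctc

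The PLA2G10 window held CAGGTG at 243 and 69 bases before the start, counted to its first base. At least 1 match stood in 17.5% of the 27305 gene windows of this length, and 2 or more in 2.55%, or 17.2% and 2.69% of the windows of panel genes. The APOE and SPHK2 windows held none, while the window of the second listed start of SPHK2 held 1, at 98 bases, and a GGGCGG at 89 bases. The windows differed in base composition too. SPHK2 had 26 CG dinucleotides, an observed over expected ratio of 1.06, PLA2G10 had 17 with a ratio of 0.590, and APOE had 5 with a ratio of 0.192, beside a median ratio of 0.556 over all windows and 0.689 over the 557 panel genes with a window. GGGCGG or its reverse complement CCGCCC, the GC box read by SP family factors, occurred 3 times in the PLA2G10 window, where one copy runs up against CAGGTG, 2 times in the APOE window and not in that of SPHK2, and in 42.3% of all windows and 61.2% of those of panel genes. TATAAA or TTTATA occurred in none of the 3, and in 11.1% of all windows and 14.9% of those of panel genes. These matches describe letters and say nothing of binding.

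SPHK2, the sphingosine kinase found largely in the nucleus and at mitochondria, was about 3-fold higher in p21-/- cells and was above the floor in all 6 samples. The WT replicates 1, 2 and 3 had 112, 152 and 175 normalized counts, and the p21-/- replicates 415, 482 and 462. No WT sample reached a p21-/- sample, and the 9 ratios of a p21-/- to a WT sample ran from 2.37 to 4.33. The ratio of geometric means was 3.15, a log2 difference of 1.65. In barcode counts the WT values were 74, 135 and 150, which is 2.85, 4.5 and 5 times the highest negative control, and those of p21-/- cells 385, 530 and 522, which is 11.7 to 21.2 times it. WT replicate 1 stood below WT replicate 3 by more than counting error, with a 95% Poisson interval of 87.6 to 140.0 normalized counts against 148 to 206 in WT replicate 3, and it was the library with the fewest counts. The SD of the log2 values was 0.331 in WT and 0.111 in p21-/- samples, where the median gene above the floor had 0.160 and 0.0634. Without WT replicate 1 the log2 difference was 1.47.

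S1PR1, the receptor for sphingosine 1-phosphate best known from lymphocytes and blood vessels, was the only gene of the sphingolipid list in the table. It was at the floor in WT replicates 1 and 3 and at 40.4 normalized counts in WT replicate 2, and it had 69.0, 55.5 and 61.1 in p21-/- replicates 1, 2 and 3. It rose in p21-/- cells by a log2 difference of 0.82 (standard error 0.167, limma adjusted p = 0.000547) and was at least 1.48-fold higher. All p21-/- samples lay above all WT samples, and at 61 to 69 barcode counts they were 1.94 to 2.44 times the highest negative control. The kinase SPHK1 and the other S1PR receptors were not analysed here.

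**Figure D2:**
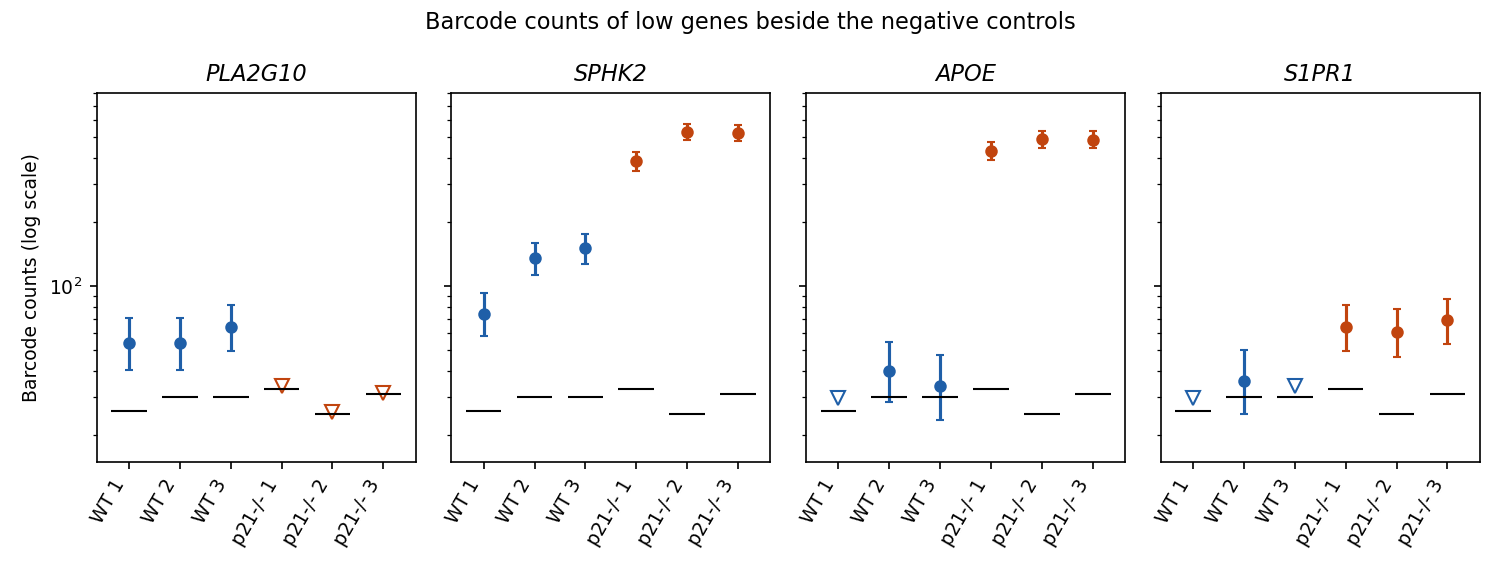
Barcode counts (log scale) of PLA2G10, SPHK2, APOE and S1PR1 in each of the 6 samples, with 95% Poisson intervals as bars, open triangles at the floor where a sample has only an upper limit, and black lines at the highest negative control of the sample. SPHK2 in p21-/- samples and APOE in p21-/- samples stand furthest from the controls, SPHK2 in WT samples is 2.85 to 5 times above them, and PLA2G10 in WT samples and S1PR1 in p21-/- samples stay within 2.13 and 2.44 times of them.

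APOE went from near background in WT cells to a clear signal in p21-/- cells. WT replicate 1 was at the floor of 29.8, WT replicates 2 and 3 had 44.9 and 39.8 normalized counts, and p21-/- replicates 1, 2 and 3 had 464, 443 and 430.0. The p21-/- samples were tightly grouped, with the highest 1.08-fold above the lowest, and all of them lay far above the WT samples. With WT replicate 1 at its upper limit, APOE was at least 10.3-fold higher in p21-/- cells, and its log2 difference was 3.53. The 40 and 34 barcode counts of WT replicates 2 and 3 had 95% Poisson intervals of 28.6 to 54.5 and 23.5 to 47.5, which include the highest negative control of 30 counts, so a WT level above background was not shown. In p21-/- samples APOE had 430, 487 and 486 barcode counts, 13.0 to 19.5 times the highest negative control.

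Macrophages are rich in APOE, and 5 of the 12 genes of the leukocyte list were in the table. PTPRC, ITGAM and MRC1 were at the floor in all 6 samples, CD163 was above it in a single p21-/- sample at 33.7, and CYBB had 44.4 to 58.4 normalized counts in WT samples and was at the floor in p21-/- samples. The summed level of these 5 genes, floor values included, was 166 to 198 in WT and 136 to 169 in p21-/- samples. PDGFRB, of the fibroblast list, was at the floor in WT samples and at 43.7 to 55.0 in p21-/- samples, while COL1A1 was at 193 to 241 in WT and 60.2 to 65.8 in p21-/- samples. The summed level of the 10 fibroblast genes measured was 478 to 545 in WT and 336 to 404 in p21-/- samples, with FAP, LUM and COL6A3 at the floor throughout. Of 7 endothelial genes, PECAM1 alone was above the floor, in 2 p21-/- samples.

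Of 258 other genes of lipid signaling and transport named in 5 lists by role, 19 were measured besides the 6 above, 3 of them rose, 5 fell and 11 did not pass the test. Called were thus 42.1% of the 19 genes, beside 47.8% of the panel, with 15.8% higher and 26.3% lower. The counts depended on the scaling. After median scaling 4 of the 19 were higher and 4 lower, beside 251 higher and 169 lower of the 770 genes. After quantile normalization 2 were higher and 2 lower, beside 214 and 155. After scaling to housekeeping candidates 2 were higher and 15 lower, beside 97 and 529. There, the 5 of the 19 genes at the floor in all samples were called too. The median log2 difference was -0.12 over the 19 genes and over all 770, which is the difference between the floors of the lines and is set by genes at the floor. In the deposited values, the 8 called genes were those of the 19 whose lines did not overlap, beside 52.2% of the panel. For PTGDS this rested on floor values. Its 43.2 in p21-/- replicate 1 lay below the upper limit of 44.9 in WT replicate 1.

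Among the genes of eicosanoids, ALOX5, the lipoxygenase that starts leukotriene synthesis, fell most. WT replicates 1, 2 and 3 had 127, 96.6 and 194 normalized counts, whereas it was at the floor in p21-/- replicates 1 and 3, and had 30.0 in p21-/- replicate 2. Its log2 difference was -2.04 (standard error 0.218, limma adjusted p = 7.76e-07), and it was at least 4.10-fold lower in p21-/- cells. PTGDS, which makes prostaglandin D2 and also carries small lipids, stayed at the floor in every WT sample and reached 43.2, 57.3 and 54.9 in the p21-/- replicates 1, 2 and 3. It rose by a log2 difference of 0.63 (adjusted p = 0.00312), a change close to background that was at least 1.25-fold. It did not pass under 3 alternatives. After quantile normalization the log2 difference stayed at 0.63 with a larger standard error (0.208 against 0.159, adjusted p = 0.0631). After scaling to housekeeping candidates the difference was 0.26 (adjusted p = 0.123). In an alternative chosen after seeing the data, with each floor value at its upper limit, it was 0.31 (adjusted p = 0.0894). The remaining genes of this list, named to account for all of it, did not pass: PTGS2, the inducible cyclooxygenase, was above the floor in WT replicate 2 at 51.7 and in p21-/- replicates 2 and 3 at 32.8 and 37.2, TBXA2R, the thromboxane receptor, had 39.8 to 45.2 in WT and 44.6 to 63.7 in p21-/- samples (adjusted p = 0.144), and PTGIS was at the floor throughout.

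The phospholipases C of the gamma type, which cut phosphatidylinositol bisphosphate downstream of receptor tyrosine kinases, moved apart. PLCG1 went from 686, 757 and 776 normalized counts to 1232, 1383 and 1417 in p21-/- replicates, a rise of 0.86 on the log2 scale (standard error 0.10, limma adjusted p = 1.93e-06). PLCG2 went from 573, 593 and 662 to 434, 491 and 483, a log2 difference of -0.37 (standard error 0.115, adjusted p = 0.0123). The fall of PLCG2 was the smallest of those called, and it did not pass after median scaling (log2 difference -0.16, adjusted p = 0.182), after quantile normalization (adjusted p = 0.761) or without p21-/- replicate 1 (adjusted p = 0.0906). AGK, a mitochondrial kinase of acylglycerols and one of the housekeeping candidates used for scaling, fell from 1318, 1309 and 1417 normalized counts to 791, 832 and 825. Its log2 difference was -0.72 (standard error 0.0922, adjusted p = 5.42e-06). ENPP2, which makes lysophosphatidic acid outside cells, was at the floor in all 6 samples.

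Of the 8 other genes of lipoproteins and lipid transport, none rose and 2 fell, which is 25% of the list beside 26.0% of the panel. ANGPTL4, a secreted inhibitor of lipoprotein lipase, had 1215, 517 and 622 normalized counts in the WT replicates 1, 2 and 3, against 341, 279 and 295 in p21-/- cells. WT replicate 1 stood apart from the other WT samples, and the log2 difference of -1.26 (standard error 0.226, limma adjusted p = 0.000176) became -0.90 without it. CLU, a secreted chaperone found in lipoprotein particles, went from 4942, 3969 and 6325 to 3026, 3508 and 3368, a log2 difference of -0.60 (standard error 0.130, adjusted p = 0.000984). After quantile normalization neither passed, with adjusted p-values of 0.148 for ANGPTL4 and 0.250 for CLU. CAV1, the coat protein of caveolae, had 5472 to 6713 normalized counts in WT and 5629 to 6383 in p21-/- samples, and STAB1, a scavenger receptor, 66.7 to 125 and 54.9 to 93.9. CD36 and STAB2 were above the floor in 1 p21-/- sample each, and the apolipoproteins APOD and APOH in none, as was RORA, the only measured gene of the list of lipid synthesis and its regulators.

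**Figure D3:**
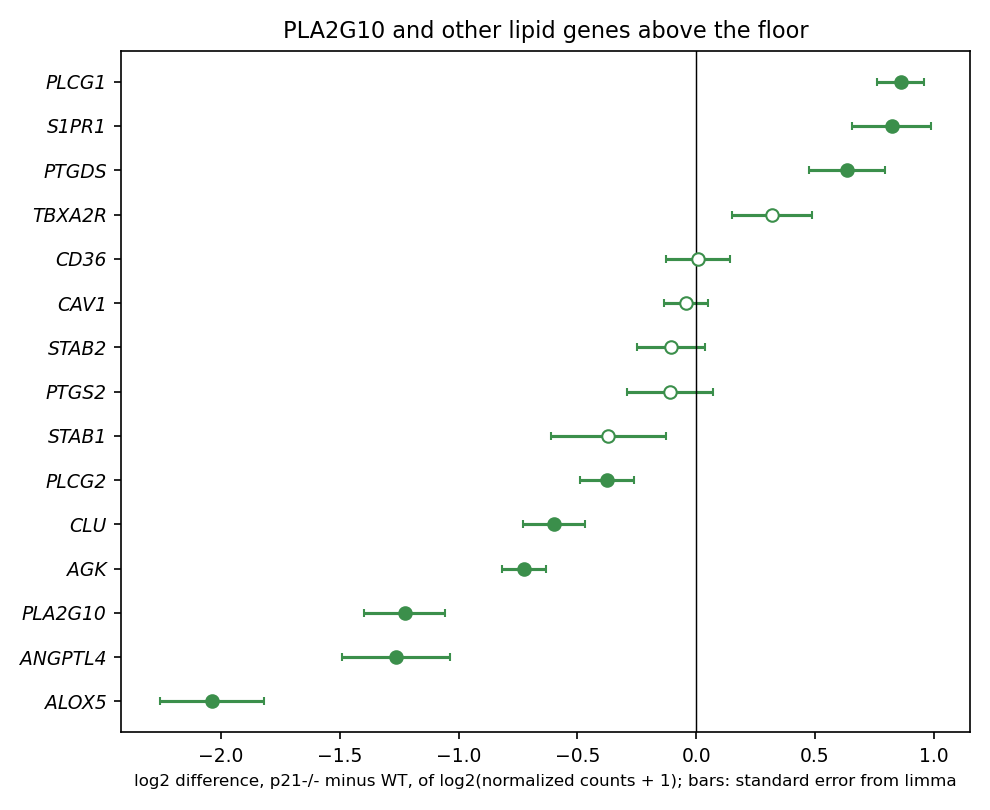
Log2 difference (p21-/- minus WT, of log2(normalized counts + 1)) of PLA2G10 and of the 14 other lipid genes above the floor in at least 1 sample, with the standard error from limma as bars and filled points for an adjusted p below 0.05. PLCG1, S1PR1 and PTGDS lie to the right of 0, and PLCG2, CLU, AGK, PLA2G10, ANGPTL4 and ALOX5 to the left.

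The plot of WT against p21-/- levels places PLA2G3 and APOE, ranked 3 and 5 by log2 difference among 770 genes, and SPHK2, ranked 17, above the line of equal level, and PLA2G10 below it, at rank 75 from the lowest. The ranks of PLA2G3, APOE and PLA2G10 depend on floor values in 1 of the lines and are not exact. PLA2G2A and PLA2G2D lie among the genes with floor values only. PLA2G3, APOE and SPHK2 were picked for this position, so it adds nothing to their values.

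**Figure D4:**
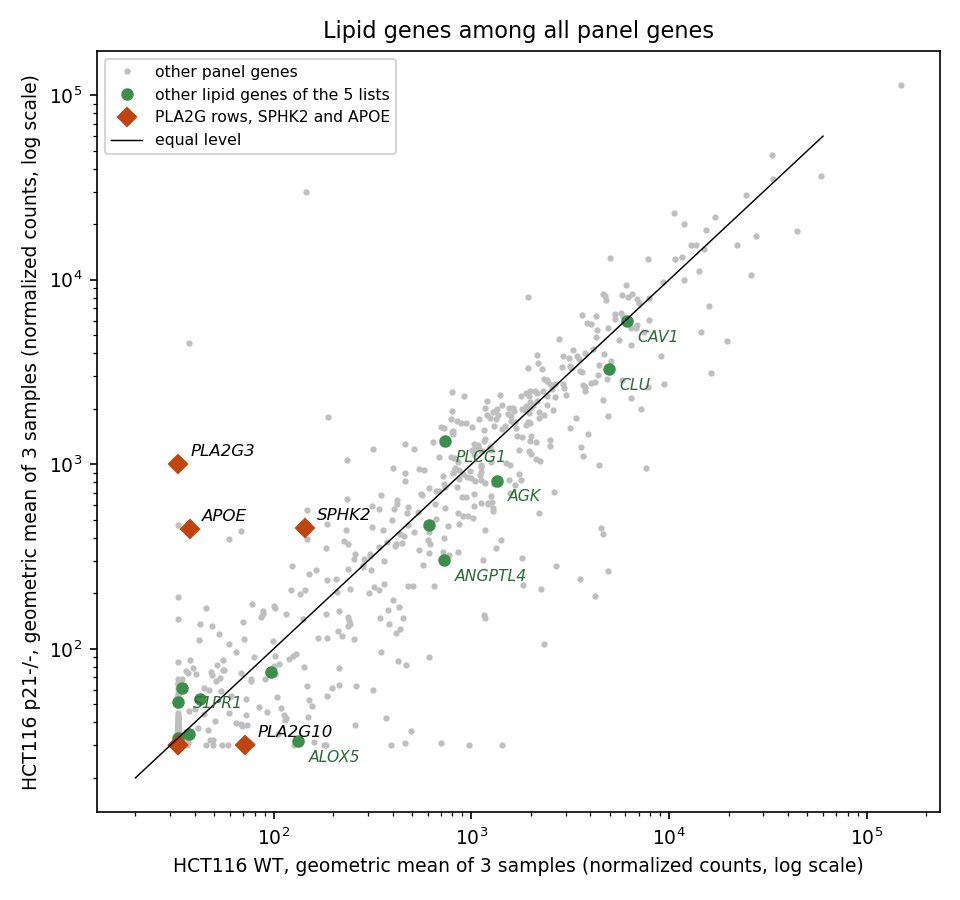
Geometric mean of the 3 p21-/- samples against that of the 3 WT samples for each of the 770 genes (normalized counts, both axes log scale), with the 6 genes in orange, the 19 other lipid genes in green and the line of equal level. PLA2G3, APOE and SPHK2 lie above the line and PLA2G10 and ALOX5 near the p21-/- floor below it, while the other lipid genes are spread on both sides.

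The genes with the most similar pattern were found by the root mean square difference between log2 profiles over the 6 samples, each centered on its own mean, among 599 genes above the floor in at least 1 sample. For SPHK2 the nearest was NRP2, a neuropilin receptor, at 0.0861, followed by CKMT1A, a mitochondrial creatine kinase with a near-identical copy in the genome, at 0.148, and BMP4, a growth factor, at 0.187. For APOE they were NRP1 at 0.227, SNAI2 at 0.243 and HLA-DPB1 at 0.440. PLA2G3 had no close match, with SNAI2 at 0.568, NRP1 at 0.836 and SPARC at 1.02. For PLA2G10 they were PTK2B, a focal adhesion kinase relative, at 0.0883, ID1 at 0.0988 and ANXA2P2, a pseudogene of ANXA2, at 0.126. With 6 samples in 2 lines, such likeness mostly reflects a log2 difference of similar size, and for genes at the floor it also reflects the shared floor.

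The 4 measured members kept their directions under every alternative run. PLA2G3 had log2 differences between 4.52 and 5.11, APOE between 3.15 and 3.74, SPHK2 between 1.26 and 1.99, and PLA2G10 between -1.60 and -1.02, with the outer values of all 4 among the other scalings of the samples. PLA2G10 passed an adjusted p below 0.05 under all 17 alternatives, with a largest adjusted p of 0.000642.

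**Figure D5:**
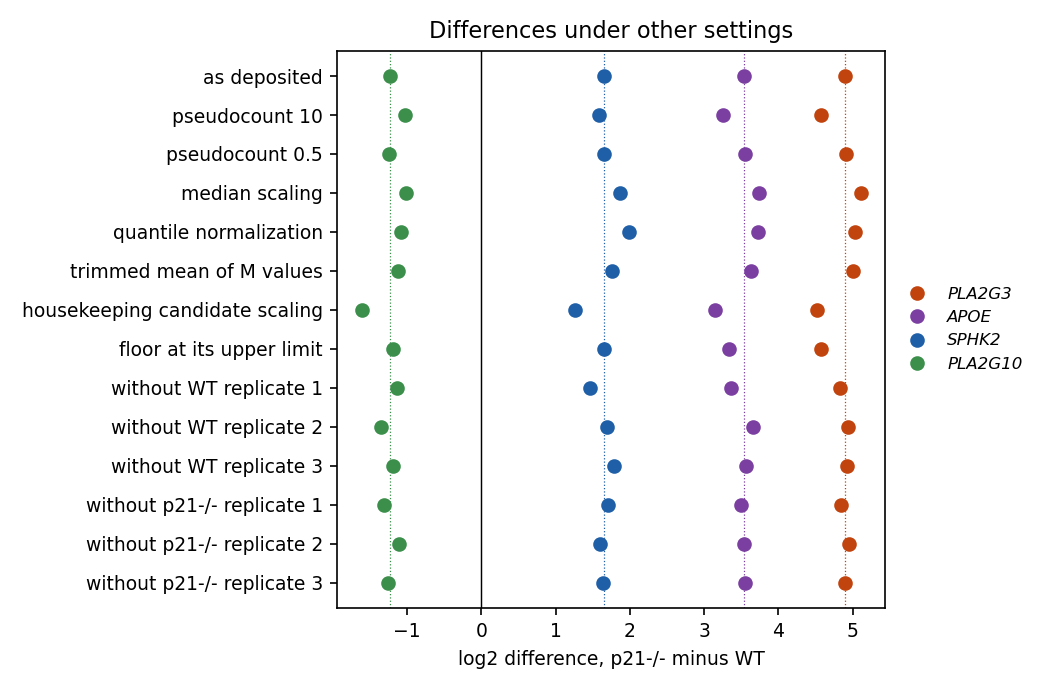
Log2 difference (p21-/- minus WT) of PLA2G3, APOE, SPHK2 and PLA2G10 as deposited and under 13 other settings, with 1 colored point per gene and a dotted line at the deposited value. The points of each gene stay on one side of 0 and in the same order, and the scaling to housekeeping candidates moves all 4 to the left.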

How the data were processed

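Values of 6 samples, 3 of each cell line, were analysed, grouped by the deposited titles. The deposited gene values are a signal, counts that the authors normalized in the nSolver software to positive controls and housekeeping genes, with a floor for low values, and the control rows are raw counts. They are not counts, so limma 3.58.1 in R 4.3.3 was used on log2(value + 1), with an intensity trend, no filter, no covariate, and two-sided p-values with Benjamini-Hochberg adjustment over 770 genes. The log2 scale with this pseudocount understates changes of low genes. Where values were at the floor, the standard error and p-value took the spread of the floors as spread between replicates. Among the called genes this concerns PLA2G10, ALOX5, PTGDS and S1PR1. An exact permutation test of 3 against 3 samples cannot give a two-sided p below 0.1. The factor of each sample (0.885 to 1.51) came from genes between the floor and 500, whose values were all whole multiples of it within 0.1 count. Higher values, PLA2G3 in p21-/- samples and most of the totals among them, were divided by the same factor and rounded, and are not covered by that check. The upper limit of a floor value is the floor, or the floor times the factor where that is higher, and "at least" folds compare geometric means with these limits. The fit was tested on simulated data.

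Named are the 6 members, CDKN1A, up to 5 called genes of largest change per lipid list, the receptors of the members' products, and 3 genes of most similar pattern per member. The uncalled genes of the lists and the cell type markers are named outside this rule, to account for each list. The members and lists were chosen with earlier results of these data known. The authors' pipeline for calling genes was NanoStringDiff on raw counts and was not repeated. All 6 members matched RefSeq by symbol.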

Additional observations from a re-analysis of the deposited data

How the results depend on the processing

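Precision at low values was limited by the floor, and 324 of 770 genes had a floor value in at least 1 sample. Alternatives to the reported settings were a pseudocount of 10 or 0.5, dropping genes below a mean of 50 (20 would drop none) or with floor values only, 4 other scalings, a constant prior variance, a replicate block, leaving out each sample, and, chosen after seeing the data, each floor value at its upper limit. The median log2 difference of genes above the floor in all samples was -0.05 as deposited, 0.16 after median scaling, 0.13 after quantile normalization, 0.06 with the trimmed mean of M values and -0.43 after scaling to 30 housekeeping candidates.

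With a pseudocount of 10 the log2 difference was 4.57 for PLA2G3 and 3.25 for APOE. Median scaling gave 5.11 for PLA2G3, quantile normalization 5.03 for PLA2G3, 1.99 for SPHK2 and 2 fallen lipid list genes in place of 5. Over the panel, 155 genes fell after quantile normalization in place of 200. Scaling to housekeeping candidates gave 4.52 for PLA2G3, 1.26 for SPHK2, 3.15 for APOE, 626 called genes and 15 fallen lipid list genes, of which 167 and 5 were at the floor in all samples, and an adjusted p of 0.123 for PTGDS. With the floor at its upper limit, PLA2G3 had 4.58, and 560 genes and 11 fallen lipid list genes were called, of which 167 and 5 were at the floor in all samples. PTGDS had an adjusted p of 0.0631 after quantile normalization.

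Leaving out each sample gave 4.83 to 4.95 for PLA2G3, 3.37 to 3.66 for APOE, 1.47 to 1.79 for SPHK2, -1.35 to -1.11 for PLA2G10, and 332 to 395 called genes. With the replicate block 363 genes were called, and PLA2G10 had the same log2 difference of -1.23 (limma adjusted p = 9.39e-08). Its standard error was larger, 0.2185 against 0.171 without the block, so the smaller adjusted p is not stronger evidence. Deviations of same-numbered samples had correlations of 0.0757, -0.0544 and 0.0524 across 446 genes. Differently numbered samples had -0.109 to 0.0822. With 3 samples per line, these values cannot show whether same-numbered samples were handled together. S1PR1, PLCG1, ALOX5, AGK and CDKN1A kept call and direction under all 17 alternatives.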
